A study of Mus musculus with 146 samples.

Results

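The share of reads that came from the mitochondrial genome was used to set germ cells of the newborn mouse ovary against each other. Of 146 sequenced cells, 1 had a TPM below 1 for Ddx4, the germ cell RNA helicase, and was left out. For each of these cells the estimated reads on the 37 mitochondrial genes were divided by all estimated reads, and the 48 cells with the highest share (high-share cells) were compared with the 48 cells with the lowest share (low-share cells), with 49 cells between them. The members were thus chosen by the measured mitochondrial read share, with the measured Ddx4 TPM as a filter. The same comparison was made again among the 93 cells with a Zp3 TPM below 1 (zona-negative cells), where the 31 highest and the 31 lowest were taken.

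All cells came from untreated C57/BL6J pups of 1 litter at day 0.5 after birth, whose ovaries were digested with trypsin before oocytes were picked under the microscope. Each cell was lysed with spike-in RNA and made into a Smart-seq2 library, a full-length method that starts from poly(A) tails. Amplified cDNA that contained Foxl2, a gene of granulosa cells, was discarded before sequencing, which limits what the libraries can show of cells with attached somatic RNA. The labels tie no cell to an animal or plate, so all cells are 1 sample, no test was made from cells, and values are given as levels, ranges and log2 ratios.

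The mitochondrial genome encodes subunits of the respiratory chain together with the ribosomal and transfer RNAs that translate them, and its transcripts are made, processed and translated inside the organelle. All other mitochondrial proteins, more numerous by far, are encoded in the nucleus and imported. Newborn mouse germ cells leave their cysts, arrest in the diplotene stage of the first meiotic prophase and become enclosed in primordial follicles, and oocytes accumulate mitochondria as they grow.

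The share ranged from 0.212% to 25.8% of reads, with a median of 6.26%. The low-share cells ended at 5.28% and the next cell stood at 5.30%, while the high-share cells began at 7.72%, next to a cell at 7.67%. These values chose the cells and are a description. The median was 4.00% in the low-share cells and 11.3% in the high-share cells. The distribution was uneven at the top, where the highest 2 cells stood at 23.9% and 25.8%.

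**Figure D1:**
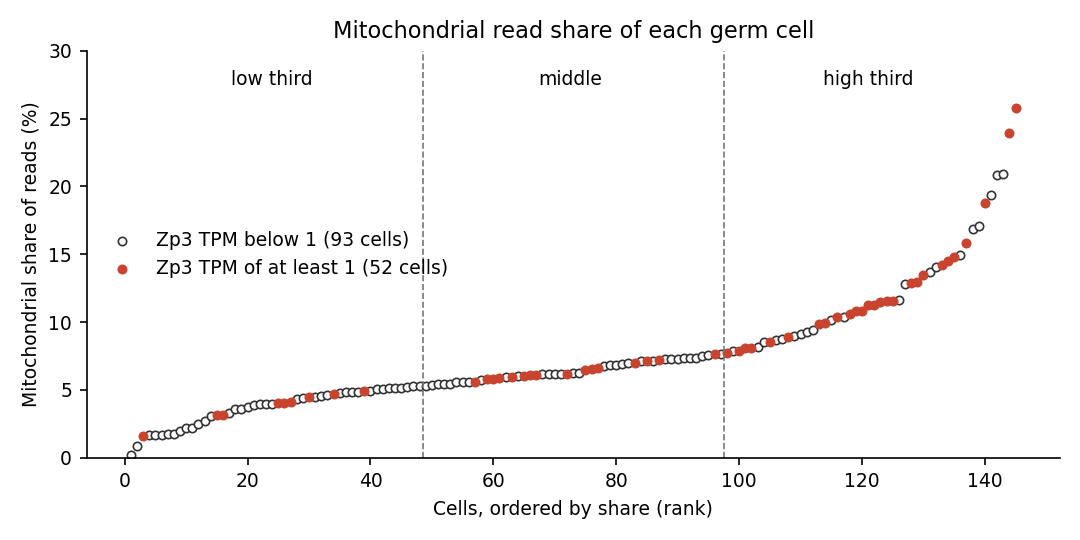
Mitochondrial share of reads (percent, y axis) of each kept cell, ordered from lowest to highest (x axis, rank). Filled points are cells with a Zp3 TPM of at least 1 and dashed lines mark the cuts at 5.28% and 7.72%; filled points made up 9 of 48 cells on the left and 27 of 48 on the right.

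Reads were also set against the spike-in RNA, of which the methods added the same volume to each lysate. Mitochondrial reads per spike-in read had a median of 11.3 in the low-share cells, 19.8 in the middle and 24.8 in the high-share cells. Nuclear reads per spike-in read had medians of 268, 267 and 186. Both are parts of the share that chose the cells, so these values describe the selection. Ranges overlapped on both measures, with 0.233 to 29.2 mitochondrial reads per spike-in read in the low-share cells against 9.09 to 129.1 in the high-share cells, and 76.9 to 681 nuclear reads against 48.9 to 973. Among the zona-negative cells the medians were 9.17 and 20.9 for mitochondrial reads and 264 and 162 for nuclear reads.

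**Figure D2:**
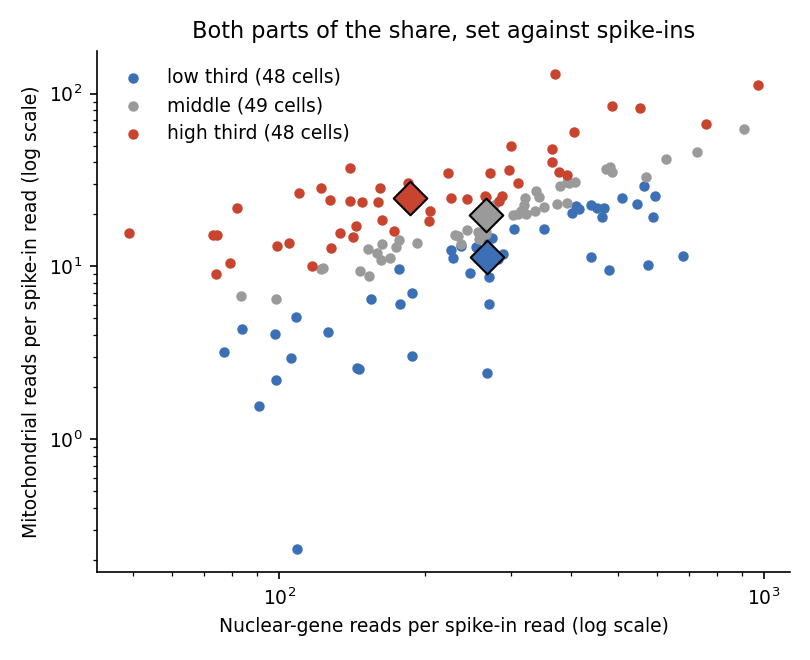
Mitochondrial reads (y axis) against nuclear-gene reads (x axis), both per spike-in read on log scales, 1 point per cell and coloured by low, middle and high share. Diamonds are the medians of these groups; from low to high share they move up from 11.3 to 24.8 and left from 268 to 186.

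The makeup of the mitochondrial reads was compared next. mt-Co1, the catalytic subunit of cytochrome oxidase, made up a median of 20.4% of mitochondrial reads in the low-share cells and 18.97% in the high-share cells. mt-Atp6, a subunit of ATP synthase, made up 21.2% and 19.7%. mt-Cytb, the cytochrome b of complex III, made up 12.5% and 9.60%. The proportions of mt-Co2 and mt-Co3, of cytochrome oxidase, were higher in the high-share cells, with 4.24% and 4.93% and with 3.68% and 4.15%. The 16S ribosomal RNA mt-Rnr2 had 11.02% and 15.26%, and the 12S ribosomal RNA mt-Rnr1 had 1.31% and 1.88%. Together, the 13 protein-coding genes held 87.8% and 82.4% of mitochondrial reads. The 2 ribosomal RNAs together ranged from 1.54% to 40.8% in the low-share cells and from 6.88% to 55.7% in the high-share cells.

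Library depth, other cell types and some libraries that stood apart bear on what follows. The low-share cells had a median of 9634170 estimated reads and the high-share cells 8749740. After thinning each cell to 500000 nuclear reads, a median of 8816 genes was seen in the low-share cells and 9733 in the high-share cells. All 7 cells with fewer than 6000 genes lay outside the high-share cells, 5 of them among the low-share cells, and all 10 cells with over 30% of nuclear TPM on rows not matched to coding genes were high-share cells. The germ cell markers had a summed level of 1135 to 5017 in the low-share cells and 1365 to 4124 in the high-share cells. Of the 15 pregranulosa markers 13 had a median of 0 in the low-share cells and 12 in the high-share cells, with summed levels of 0 to 77.4 and 0 to 82.3. Foxl2 reached 1 TPM in 0 of 48 low-share cells (exact upper 95% limit 7.40%) and in 3 of 48 high-share cells (1.31% to 17.2%), and in 0 of 31 and 4 of 31 zona-negative cells. The 11 stroma markers summed to 0 to 185 and 0.11 to 1064. Of the 7 stroma markers with enough signal 4 were at least 1.5-fold higher in the high-share cells and none was lower (median log2 ratio 0.96), where 21.7% of all genes were higher and 24.3% lower, and in zona-negative cells 5 of 7 were higher (1.38). As differences of mean log2 values these medians were 0.08 and 0.37, and the summed level had medians of 22.0 and 24.1, with 6 cells over 100 on either side. Of 9 germ cell markers 1 was higher and 4 were lower, with a median of -0.51. Of the 10 blood markers 7 and 6 had a median of 0. Of the 6 with enough signal 5 were lower and none was higher, with a median log2 ratio of -2.09. In zona-negative cells all 6 were lower (-3.74). As differences of mean log2 values these medians were 0.53 and 0.49. Ddx4, whose level is part of the rule, ranged from 71.8 to 587 with a median of 331 in the low-share cells and from 10.5 to 671 with a median of 151.1 in the high-share cells. Hba-a1, a haemoglobin gene, reached 1 TPM in 25 of 48 low-share and 40 of 48 high-share cells, and in 13 of 31 and 26 of 31 zona-negative cells, while 1 low-share cell had 32.5% of its TPM on globin genes. The part of these other cell types' markers in the results below was not tested.

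Nuclear genes were compared on TPM rescaled to the same total over the nuclear genes of each cell (nuclear-scaled TPM), so that the mitochondrial reads themselves did not lower them. A log2 ratio is that of the mean in the high-share cells over the mean in the low-share cells, each with a pseudocount of 1. Of 11954 coding genes with a mean of at least 1, 45.9% differed at least 1.5-fold (0.58 on the log2 scale), 21.7% being higher in the high-share cells (2591 genes) and 24.3% lower (2900 genes). The median log2 ratio over all genes was -0.04. The balance depended on the scaling, with 1966 genes higher and 3631 lower on TPM as deposited, 1947 and 3344 per spike-in TPM, 3320 and 2382 on TPM over coding genes, and 2974 and 2500 on CPM of nuclear reads. These scalings moved the median of all genes to -0.20, -0.16, 0.09 and 0.05. Among the zona-negative cells 44.1% of 11809 genes differed, with 22.3% higher (2631 genes) and 21.8% lower (2579 genes), and the median was -0.03. There the split was 2040 and 3255 on TPM as deposited and 1214 and 4768 per spike-in TPM, with medians of -0.17 and -0.42, and leaned the other way with 3201 and 2228 on TPM over coding genes and 2845 and 2323 on CPM of nuclear reads, with medians of 0.08 and 0.03. The counts below are read against these shares.

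**Figure D3:**
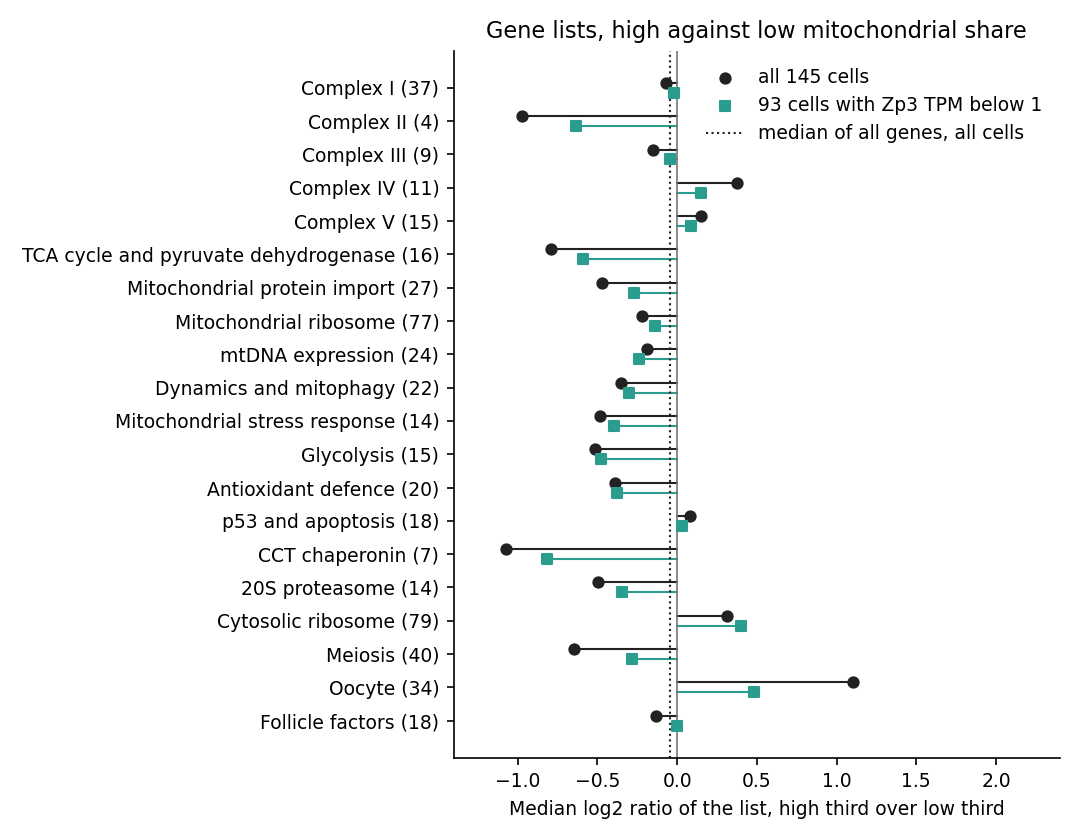
Median log2 ratio of each gene list (x axis), high-share over low-share cells, with the number of genes compared in all cells in brackets. Circles are all kept cells, squares the 93 zona-negative cells and the dotted line the median of all genes (-0.04); complex II, the citric acid cycle and the CCT chaperonin lie to the left and the oocyte list to the right.

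Complex II of the respiratory chain, succinate dehydrogenase, is the only respiratory complex without a subunit from the mitochondrial genome, and it also serves the citric acid cycle. Its 4 genes were all below the median of all genes, 3 of them at least 1.5-fold lower in the high-share cells, where 24.3% of all genes were lower. The median log2 ratio was -0.97 in all cells and -0.63 among the zona-negative cells, where 2 of 4 were at least 1.5-fold lower against 21.8% of all genes. Sdhd, a membrane anchor of the complex, ranged from 0 to 863 with a median of 224 in the low-share cells and from 0 to 391 with a median of 46.5 in the high-share cells. Its means of 241 and 76.4 gave a log2 ratio of -1.65, which lay between -1.78 and -1.56 with any 1 cell left out. The 2 ranges overlapped and the gene was detected, at 0.1 or more, in 47 and 42 of 48 cells. Sdhb, the iron-sulfur subunit, ranged from 85.98 to 459 with a median of 202 in the low-share cells and from 0 to 354 with a median of 101.7 in the high-share cells, for a log2 ratio of -0.98. Its ratio was -0.53 in zona-negative cells. Sdha, the flavoprotein that holds the succinate site, had medians of 314 and 123.9 and a ratio of -0.96. Sdhc, the other anchor, had means of 205 and 153 and a ratio of -0.42, below 1.5-fold. The ratios of the list remained negative under the 4 other scalings, with medians of -1.13 on TPM as deposited, -1.18 on CPM of nuclear reads, -1.01 per spike-in TPM and -0.83 on TPM over coding genes.

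The promoters of Sdha, Sdhb and Sdhd are shown because genes of the respiratory chain are known targets of NRF1 and of the ETS factor GABP. Sdhc had no promoter entry in the source used. RefSeq windows from 250 bases before to 50 bases after the gene's start (build GRCm38.p6) were searched on both strands for GCGCNNGCGC, the core of NRF1 sites, and CCGGAAG, a core of ETS sites. Both patterns can share bases at their ends. They lie at chr13:74350191-74350490 on the minus strand for Sdha, chr4:140961021-140961320 on the plus strand for Sdhb and chr9:50603800-50604099 on the minus strand for Sdhd. Capitals mark the matches, with the reverse strand of the ETS core reading CTTCCGG.
Sdha: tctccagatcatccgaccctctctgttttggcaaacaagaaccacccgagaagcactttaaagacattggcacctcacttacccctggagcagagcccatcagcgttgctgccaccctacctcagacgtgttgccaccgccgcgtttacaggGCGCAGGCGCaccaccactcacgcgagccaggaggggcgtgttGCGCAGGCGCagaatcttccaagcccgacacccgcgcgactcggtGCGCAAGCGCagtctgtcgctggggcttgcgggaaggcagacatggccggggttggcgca
Sdhb: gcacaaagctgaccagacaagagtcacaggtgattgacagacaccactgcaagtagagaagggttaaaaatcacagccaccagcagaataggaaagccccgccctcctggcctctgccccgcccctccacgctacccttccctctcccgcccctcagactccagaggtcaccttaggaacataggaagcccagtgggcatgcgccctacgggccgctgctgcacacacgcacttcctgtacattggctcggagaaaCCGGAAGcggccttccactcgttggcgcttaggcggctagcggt
Sdhd: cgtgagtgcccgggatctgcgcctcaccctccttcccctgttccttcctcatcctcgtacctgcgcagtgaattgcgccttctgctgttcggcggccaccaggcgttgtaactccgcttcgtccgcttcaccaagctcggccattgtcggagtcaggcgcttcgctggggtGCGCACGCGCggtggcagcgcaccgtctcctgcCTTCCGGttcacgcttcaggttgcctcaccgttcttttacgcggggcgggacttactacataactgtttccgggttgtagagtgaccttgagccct
The Sdha window held the NRF1 core 3 times, the Sdhb window the ETS core once and the Sdhd window each core once. Of 27025 promoters 6.43% held the NRF1 core and 9.12% the ETS core, and of the 15127 promoters of coding genes in these data 9.53% and 12.4%. Among 64 nuclear respiratory chain genes with an entry, 18 held the NRF1 core and 15 the ETS core. A match is a description of the letters only. The mean of Nrf1 itself was 91.96 in the low-share cells and 75.2 in the high-share cells, and that of Gabpa, the DNA-binding subunit of GABP, 42.05 and 25.6 with a log2 ratio of -0.69.

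The other respiratory complexes, which combine nuclear with mitochondrial subunits, had medians closer to 0 than complex II. Over all 76 nuclear respiratory chain genes the median log2 ratio was -0.02, with 2 genes higher and 16 lower, and its sign changed with the scaling (-0.17 on TPM as deposited, 0.13 per spike-in TPM). The 2 higher and the 16 lower genes are smaller shares than the 21.7% and 24.3% of all genes. The same holds for complexes I and V below. In complex I, 1 of 37 genes was higher and 6 were lower, with a median of -0.07. Ndufv3, a small accessory subunit, had means of 218 and 373 and a ratio of 0.77. In complex III, 3 of 9 genes were lower and none was higher, and the 3 were Uqcrc1, Uqcrc2 and Uqcrfs1, the first 2 being the core proteins and the last the Rieske iron-sulfur protein. Uqcrc1 ranged from 55.96 to 2137 in the low-share cells (median 587) and from 0 to 761 in the high-share cells (median 272), with a ratio of -1.15. In complex IV the median was 0.38, with Cox7c at 1.03 and Cox6b1 at -0.60 as the 2 genes past 1.5-fold among 11. The median of complex IV stayed above 0 under each scaling in all cells and was -0.25 per spike-in TPM among the zona-negative cells. In complex V, 3 of 15 genes were lower, namely Atp5a1 and Atp5b, the catalytic head subunits, and Atp5f1, of the stalk. Atp5a1 had medians of 342 and 116.2 and a ratio of -1.245. The small subunits Cox6c, of complex IV, and Uqcrb, of complex III, had ratios of 0.53 and 0.41. Over the 11954 genes the log2 ratio had a Spearman's rho of 0.04 with the gene length in the files, and over the 76 respiratory chain genes -0.29, with a median of 0.13 in the 38 shorter and -0.16 in the 38 longer genes. These are values across genes, which are not independent.

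The citric acid cycle and pyruvate dehydrogenase, which feed electrons into the chain, were lower as a list. Of 16 genes, 9 were at least 1.5-fold lower and 1, Pdha1, was higher, with a median of -0.79. In zona-negative cells 9 were lower and 1 was higher, with a median of -0.59, which was -0.45 on CPM of nuclear reads. Dld, the dihydrolipoamide dehydrogenase that pyruvate and oxoglutarate dehydrogenase share, had the lowest ratio. It ranged from 0.25 to 1408 with a median of 470.4 in the low-share cells and from 0 to 523 with a median of 72.4 in the high-share cells. Its ratio was -1.93 in all cells and -1.30 among the zona-negative cells. Dlat, the acetyltransferase of pyruvate dehydrogenase, had means of 141.3 and 59.2 (-1.24), Ogdh, of oxoglutarate dehydrogenase, 63.7 and 31.4 (-0.99), and Sucla2, of succinate-CoA ligase, 204 and 104.5 (-0.96). Pdha1 itself was low, with medians of 0.05 and 0.70. Citrate synthase (Cs) had means of 54.2 and 40.1 and a ratio of -0.42.

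Proteins made in the cytosol enter mitochondria through the TOM and TIM complexes. Of 27 genes of this import machinery 10 were lower in the high-share cells and none was higher, and the median was -0.47. In zona-negative cells 6 were lower and 1 was higher, with a median of -0.27. The 6 lower genes are about the same share as the 21.8% of all genes there. Timm17a, a channel subunit of TIM23, ranged from 265 to 1737 in the low-share cells, with a median of 654, and from 0.02 to 802 in the high-share cells, with a median of 249. Its log2 ratio was -1.37, and its Spearman's rho with the share was -0.58 over all kept cells and -0.56 over the 93 zona-negative cells, which come from the same libraries as the share. Tomm70a, an outer membrane receptor, had means of 106.7 and 44.3 (-1.250) and Hspa9, the matrix motor chaperone, medians of 207 and 74.5 (-1.02).

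The genes listed for copying and transcribing the mitochondrial genome and for its ribosome were taken next. Of 24 genes for mitochondrial DNA and RNA, 1 was higher and 4 were lower in all cells, with a median of -0.19, and 5 were higher and 1 was lower in zona-negative cells, with a median of -0.24. As differences of mean log2 values these medians were -0.10 and 0.09. The 4 lower genes are a smaller share than the 24.3% of all genes, and the 5 higher in zona-negative cells are near the 22.3% there. Polrmt, the mitochondrial RNA polymerase, had means of 35.7 and 52.4 and a ratio of 0.54 that became -0.02 on CPM of nuclear reads. Grsf1, of the RNA granules, had 184 and 108.3 (-0.76), and Twnk, the replicative helicase, 32.5 and 21.1 (-0.60). Of 77 mitochondrial ribosomal proteins 4 were higher and 16 were lower, with a median of -0.22 that was negative under each scaling. The 16 lower genes are also a smaller share than the 24.3% of all genes. Mrps18a had means of 389 and 209 (-0.90). Lars2, the mitochondrial leucyl-tRNA synthetase, is in neither list and is described with the genes named for their rho. Of the 5 regulators of mitochondrial biogenesis with enough signal, 3 were higher (Pprc1, Esrra and Yy1) and 1 was lower (Gabpa). Yy1 went from a mean of 13.5 to 25.8. Among 22 genes of mitochondrial fusion, fission and mitophagy 3 were higher and 7 were lower, with Bnip3, a mitophagy receptor, at means of 311 and 158 (-0.97) and Dnm1l, the fission GTPase, at 91.7 and 54.4 (-0.74).

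The CCT chaperonin, the cytosolic ring that folds actin and tubulin, was listed after its values were seen. Of its 7 genes compared 6 were lower, with a median log2 ratio of -1.07, and among the zona-negative cells 5 were lower with a median of -0.82. The summed level of the 7 genes ranged from 1821 to 9458 in the low-share cells, with a median of 4078, and from 166 to 3911 in the high-share cells, with a median of 1660. Cct8 ranged from 183 to 2341 with a median of 842 in the low-share cells and from 1.62 to 937 with a median of 335 in the high-share cells, with a ratio of -1.42 in all cells and -1.02 among the zona-negative cells. Its rho with the share was -0.61. Hspa8, the constitutive cytosolic heat shock cognate, ranged from 107.7 to 5677 with a median of 2112 in the low-share cells and from 1.31 to 2085 with a median of 436 in the high-share cells. Its ratio was -1.87 in all cells, with a rho of -0.61, and -1.09 among the zona-negative cells. Hsp90aa1, a cytosolic chaperone, had means of 7696 and 4826 (-0.67), and Hspa5, the chaperone of the endoplasmic reticulum, 580.4 and 206 (-1.49). The 20S proteasome, also listed after its values were seen, had 5 of 14 genes lower and none higher, with a median of -0.50. All 14 of its ratios lay below 0, with Psma5 lowest at -1.31.

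**Figure D4:**
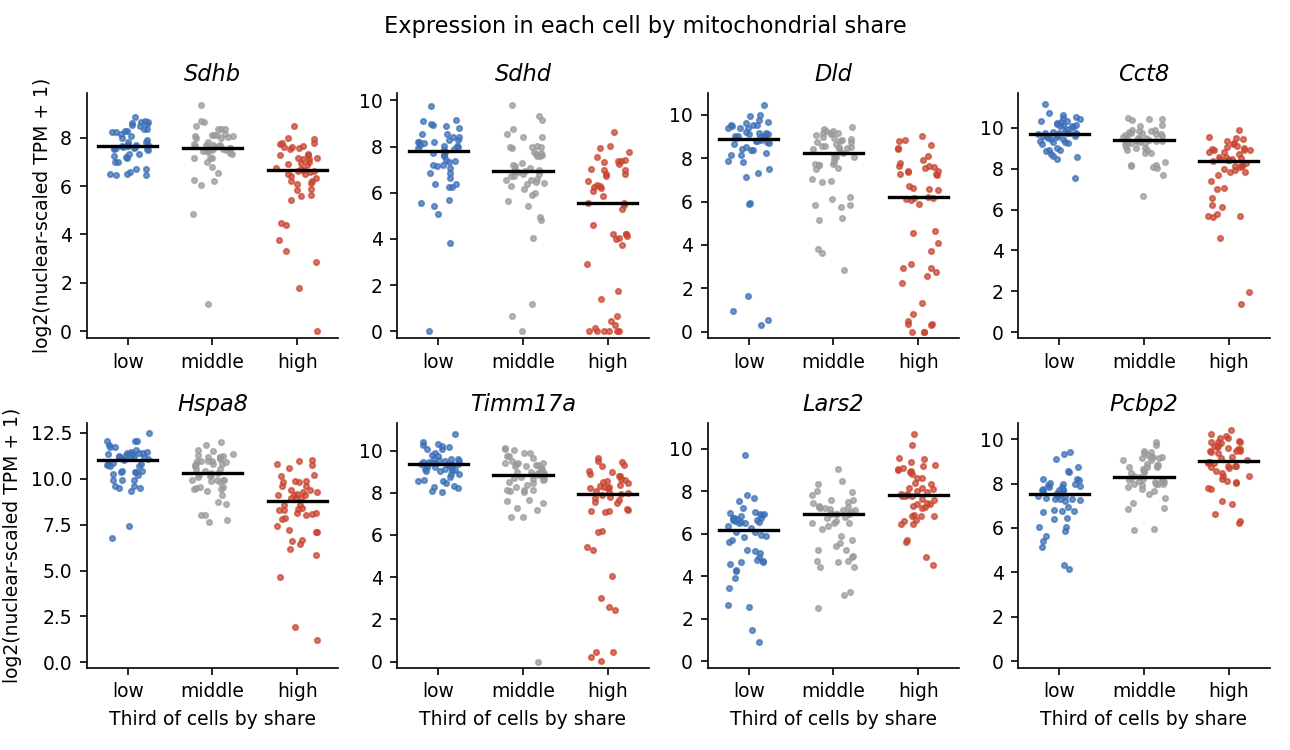
Level of 8 genes in each kept cell, as log2 of nuclear-scaled TPM plus 1 (y axis), by low, middle and high share (x axis), with 1 point per cell and bars at the medians. The medians of Sdhb, Sdhd, Dld, Cct8, Hspa8 and Timm17a step down from low to high share (Hspa8 from 2112 to 436 before the log) and those of Lars2 and Pcbp2 step up.

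In the list of the mitochondrial stress response 2 of 14 genes were higher, Atf4 with means of 57.96 and 125.0 and Shmt2 with 29.3 and 77.4, and 7 were lower, among them Hspa5 (above), Psat1 (-1.37), Asns (-1.12) and Ddit3 (-1.55). Of 18 genes of p53 and apoptosis 5 were higher and 1 was lower, with a median of 0.08. The higher genes were low in level, such as Bbc3 with means of 0.27 and 3.45 and Apaf1 with 2.69 and 8.39, and the lower gene was Mdm2, the ubiquitin ligase of p53, with a median of 47.1 in the high-share cells and a log2 ratio of -1.36. Bax, which opens the outer mitochondrial membrane, had 630 and 521 (-0.27). In antioxidant defence 1 of 20 genes was higher and 7 were lower, with a median of -0.39. Prdx1, a peroxiredoxin, ranged from 1307 to 6883 in the low-share cells (median 2374) and from 2.90 to 6808 in the high-share cells (median 1590), for a ratio of -0.83. Glycolysis had 4 of 15 genes higher and 6 lower, with a median of -0.52, and Pkm, pyruvate kinase, had medians of 453 and 210 (-1.16). The median of the glycolysis list was -0.22 as a difference of mean log2 values, and its median rho with the share was 0.01. Per spike-in TPM it was -0.17, beside -0.16 for all genes. Immediate early and heat shock genes had 6 of 14 higher and 5 lower in all cells and 2 of 15 higher and 4 lower in zona-negative cells. Ier2, an immediate early gene, had means of 40.9 and 147 in all cells and 25.7 and 54.4 among the zona-negative cells.

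Of 79 cytosolic ribosomal protein genes 22 were higher and 3 were lower, with a median of 0.31, where 21.7% of all genes were higher, so that the share of higher genes was near that of all genes while that of lower genes was under it. In zona-negative cells 28 were higher and 1 was lower, with a median of 0.40. Per spike-in TPM the median there was -0.03, beside -0.42 for all genes. Rpl10a had means of 96.6 and 275 (1.501) and Rpl27a ranged from 22.9 to 556 with a median of 180 in the low-share cells and from 1.69 to 694 with a median of 371 in the high-share cells (0.87). The 3 lower genes were Rpl5 (-1.10), Rplp0 (-0.96) and Rpl3 (-0.70).

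High-share and low-share cells also differed in developmental stage. Zp3, which encodes a protein of the zona pellucida, reached 1 TPM in 9 of 48 low-share cells (exact 95% interval 8.95% to 32.6%), in 16 of 49 cells of the middle (19.9% to 47.5%) and in 27 of 48 high-share cells (41.2% to 70.5%), intervals that cover counting error only. Gdf9, an oocyte growth factor, reached 1 TPM in 10 and 23 of 48 cells. Of 34 oocyte genes 24 were higher and 1, Nlrp5, was lower, with a median of 1.11. Padi6, of the cytoplasmic lattices, ranged from 0 to 2836 with a median of 0.14 in the low-share cells and from 0 to 3047 with a median of 8.84 in the high-share cells, with means of 119.5 and 465. The median of the list was 0.31 when the share was computed from TPM and 0.38 when mt-Rnr1 and mt-Rnr2 were left out of it. Of 40 meiosis genes none was higher and 22 were lower, with a median of -0.65. Meiob, which acts in meiotic recombination, ranged from 0 to 716 with a median of 70.3 in the low-share cells and from 0 to 280.1 with a median of 9.02 in the high-share cells (-1.94). Sycp1, of the synaptonemal complex, had means of 1252 and 1230 (-0.03). Without the 10 cells with over 30% of nuclear TPM on rows not matched to coding genes, the median of the meiosis list was -0.44.

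The same stage lists were read in the zona-negative cells, where fewer oocyte genes passed the minimum level. Of 25 oocyte genes 10 were higher and 2 were lower, with a median of 0.48, and of 42 meiosis genes 3 were higher and 13 were lower, with a median of -0.28. Sohlh1, a transcription factor of primordial follicles, reached 1 TPM in 25 of 31 low-share and 30 of 31 high-share cells of this group, and Gdf9 in 4 and 5 of 31. Stra8, which starts meiosis, reached 1 TPM in 1 and 5 of 31, and in 2 and 7 of 48 in all cells. The follicle factors as a list had 3 of 18 genes higher and 4 lower there, against 4 and 4 in all cells. How far stage sets the other differences was not tested.

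Genes were named by ratio only within limits on level, detection and difference of mean log2 values, given with the processing below. Among these, the lowest ratios in all cells were those of Ccnb3, Xrcc2, Spdya, H2-D1, Dpep3, Zdhhc7, Arrdc3, Meioc, Maoa, Rbm43, Tktl1 and Ly6k. Ccnb3, the cyclin B3 of meiosis, ranged from 0 to 1888 with a median of 41.8 in the low-share cells and from 0 to 181 with a median of 0.95 in the high-share cells, with means of 214 and 22.7 and a ratio of -3.18. Spdya, which activates Cdk2 at meiotic telomeres, had means of 148 and 16.5 (-3.09). Xrcc2 had 43.4 and 4.07 (-3.13), with a ratio of -1.86 on CPM of nuclear reads and a rho of -0.14. Meioc, which sustains meiotic prophase, had 119.3 and 18.2 (-2.65), with medians of 0.17 and 0.04 and ratios from -3.87 to -2.32 with any 1 cell left out. Maoa, monoamine oxidase of the outer mitochondrial membrane, had medians of 59.3 and 1.83 (-2.59). Tktl1, a relative of transketolase, had medians of 342 and 44.1 and was detected in 46 of 48 cells on both sides, with a ratio of -2.37 and a rho of -0.54. The remaining lower genes had ratios from -2.83 to -2.32. Leaving out 1 cell took Zdhhc7 from -2.82 to -2.14, H2-D1 from -2.83 to -3.67 and Spdya from -3.09 to -3.81, and Zdhhc7 was -1.55 on CPM of nuclear reads. Among the zona-negative cells the ratio of Ccnb3 was -1.61, that of Spdya -1.77 and that of Tktl1 -1.68. Leaving out 1 cell there took Ccnb3 to -2.45 and Spdya to -2.59.

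Within the same limits, the genes with the largest higher ratios had medians near 0 in the low-share cells. Detection was required only on the higher side, so these low medians are partly built into the choice. In the high-share cells their medians ran from 0.10 (Slit3) to 25.8 (Exosc6), with Srgn at 0.11, Padi2 at 0.52 and Snapc4 at 1.31. Agr3 had means of 1.63 and 23.6 (3.23) and medians of 0 and 1.13, and its ratio was 1.80 on CPM of nuclear reads. Snapc4, which serves transcription of small nuclear RNA genes, had means of 6.61 and 56.3 (2.91), with a highest cell of 749, and its ratio was 2.26 on CPM of nuclear reads and 2.18 per spike-in TPM. Exosc6, a subunit of the RNA exosome, was detected in 12 of 48 low-share and 34 of 48 high-share cells, with medians of 0 and 25.8 and a ratio of 2.70. Nox1, a superoxide-producing oxidase, had medians of 0 and 13.5 (2.42) in all cells, while among the zona-negative cells its ratio was 0.34 and -0.16 per spike-in TPM. Wtip, Padi2, Pcdh15, Zscan2, Slit3, Srgn, Endov and Gm10217 had ratios from 2.41 to 2.91. Gm10217 was 0.72 on CPM of nuclear reads against 2.41, and per spike-in TPM Zscan2 was 1.76 and Srgn 1.47. With any 1 cell left out, Padi2 lay between 2.23 and 3.57, Zscan2 between 2.04 and 2.93 and Slit3 between 2.14 and 3.17. The ratio of Srgn lay between 1.78 and 3.37, whereas that of Exosc6 lay between 2.49 and 3.03.

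Across all kept cells, the lowest values of rho with the share were those of Spc25 (-0.62), Cct8, Hspa8, Ywhae and Tcp1, and the highest those of Lars2 (0.59), Pcbp2 (0.57), Rpl27a (0.54), Prpf38b (0.50) and Cnpy1 (0.49). The central 90% of all genes lay between -0.31 and 0.25. Lars2, the leucyl-tRNA synthetase of mitochondria, ranged from 0.89 to 827 with a median of 71.4 in the low-share cells and from 22.1 to 1672 with a median of 226 in the high-share cells. Its ratio was 1.85 in all cells and 1.40 among the zona-negative cells, where it was 0.62 per spike-in TPM and up to 1.89 with 1 cell left out. Pcbp2, an RNA-binding protein, ranged from 16.8 to 677 with a median of 181 in the low-share cells and from 72.7 to 1359 with a median of 517 in the high-share cells (1.52). Spc25, of the kinetochore, was detected in 48 of 48 low-share and 41 of 48 high-share cells, with medians of 183 and 39.2. Ywhae, a 14-3-3 protein, had medians of 595 and 289, and Tcp1, a CCT subunit, 819.8 and 362. The ranges of each of these genes overlapped between the 2 sides.

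Among the 93 zona-negative cells the lowest values of rho were those of Ywhae, Tdrkh, Cct8, Timm17a and Sucla2, all between -0.57 and -0.56. Tdrkh, which anchors the piRNA pathway to mitochondria, ranged from 126.5 to 958 in the low-share cells (median 270.2) and from 0 to 396 in the high-share cells (median 123.1). The highest values were those of Fbrsl1 (0.58), Rpl14, Lars2, Cep162 and Rpl10a. Fbrsl1 was detected in 12 of 31 low-share and 28 of 31 high-share cells, with medians of 0 and 23.6. Rpl14 had medians of 1282 and 1933, with a ratio of 0.78 that was 0.32 per spike-in TPM. Within the limits for named genes, the largest higher ratio was that of Gcdh, the mitochondrial glutaryl-CoA dehydrogenase, with means of 0.96 and 40.6 (4.41). Next came Snapc4, Wtip, Klf12, Clcn5, Efr3b, Zscan2 and Thap2 (3.21 to 3.82). Medians in the high-share cells of this group were low, with 1.93 for Gcdh and 5.20 for Wtip. Those of the rest ran from 0.26 (Klf12) to 0.95 (Thap2). Gcdh lay between 3.99 and 5.09 with any 1 cell left out and was 3.50 per spike-in TPM. Among the zona-positive cells, described below, its ratio was 0.38, but its direction was not stable. It lay between -1.13 and 0.81 with any 1 cell left out and was -0.53 per spike-in TPM. As a difference of mean log2 values it was -0.70. Leaving out 1 cell took Efr3b from 3.38 to 2.14, Zscan2 from 3.37 to 2.28, Thap2 from 3.21 to 2.17 and Snapc4 from 3.82 to 3.14. Per spike-in TPM Zscan2 was 1.82, Snapc4 2.50, Thap2 2.20, Wtip 2.89, Clcn5 2.65 and Efr3b 2.70. On CPM of nuclear reads Klf12 was 1.96, Clcn5 2.18 and Thap2 1.85. Within the same limits, the largest lower ratios were those of Pgm3 (-3.54), Shcbp1, Abca5, Zfp449, Adcy10, Ralb, Zdhhc7 and M1ap (-2.78 to -2.42). Leaving out 1 cell took Shcbp1 from -2.78 to -1.66, Ralb from -2.57 to -1.81, Zdhhc7 from -2.52 to -1.61 and Abca5 from -2.70 to -2.11. On CPM of nuclear reads Zdhhc7 was -0.83 and Abca5 -1.50. M1ap, needed in male meiosis, had medians of 62.6 and 0.10 and was detected in 25 of 31 and 15 of 31 cells.

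The 52 cells with a Zp3 TPM of at least 1 (zona-positive cells) were also ranked by their share and cut anew, which gave 17 low-share cells up to 6.09% and 17 high-share cells from 10.8%. Here 51.9% of 11642 genes differed at least 1.5-fold, 23.8% higher and 28.1% lower, with a median log2 ratio of -0.11. Of the 36 oocyte genes 3 were higher and 14 were lower, with a median of -0.43, which stayed below 0 under each scaling. Zp3, by which these cells were chosen, had medians of 402 and 229. Of 40 meiosis genes 2 were higher and 15 were lower, with a median of -0.37. Complex II had a median of -0.94, with Sdhb ranging from 126.3 to 403 (median 209) in the low-share cells and from 2.45 to 217 (median 69.1) in the high-share cells, and a ratio of -1.44. Sdha, however, had a ratio of -0.12 there, which lay between -0.41 and 0.03 with any 1 cell left out. Hspa8 had medians of 763 and 313 (-1.53), and the CCT chaperonin had 6 of 7 genes lower with a median of -0.80. Of 12 immediate early and heat shock genes 7 were higher and 4 were lower, with a median of 1.21 that was 0.47 as a difference of mean log2 values, while the summed level of the list had medians of 6365 and 4249.9. Over the 76 respiratory chain genes 2 were higher and 18 were lower, with a median of -0.37. The 18 lower genes are a smaller share than the 28.1% of all genes here. Cytosolic ribosomal proteins had a median of -0.01, with 10 of 79 genes higher and 5 lower. Whether these ratios differ from those of the zona-negative cells was not tested.

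The last comparison is of rows of the files that were not matched to a coding gene. They held a median of 16.99% of nuclear TPM in the low-share cells, 17.9% in the middle and 22.7% in the high-share cells, with a rho of 0.64 over all kept cells and 0.59 over the 93 zona-negative cells. Most of this sum came from rows with no match in the annotations, whose identity is unknown and which held medians of 11.4%, 11.4% and 14.4%. Rn18s-rs5, an 18S ribosomal RNA row, ranged from 174 to 38444 with a median of 8809 in the low-share cells and from 2463 to 77167 with a median of 21448 in the high-share cells. Its ratio was 1.17, with a rho of 0.48. The TPM as deposited of this row had a rho of 0.79 with that of mt-Rnr2, whose reads are part of the share. Rn7s1, the RNA of the signal recognition particle, had means of 1195 and 2636 (1.14). The 6 such rows chosen after their values were seen, which also include Mir6236, Mir6240, Gm24245 and Rn7sk, all had ratios of at least 1.14 in all cells. These RNAs mostly lack poly(A) tails, and their part in the differences above was not tested. RP23-8J15.1, a clone-named row without a match in the annotations used, had means of 10065 and 30031 and a rho of 0.86 with the share. Its level also had a rho of 0.86 with that of mt-Co2, the mitochondrial gene it followed most closely. Rows of this clone held a median of 1.23% of nuclear TPM in the low-share cells and 3.25% in the high-share cells.

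**Figure D5:**
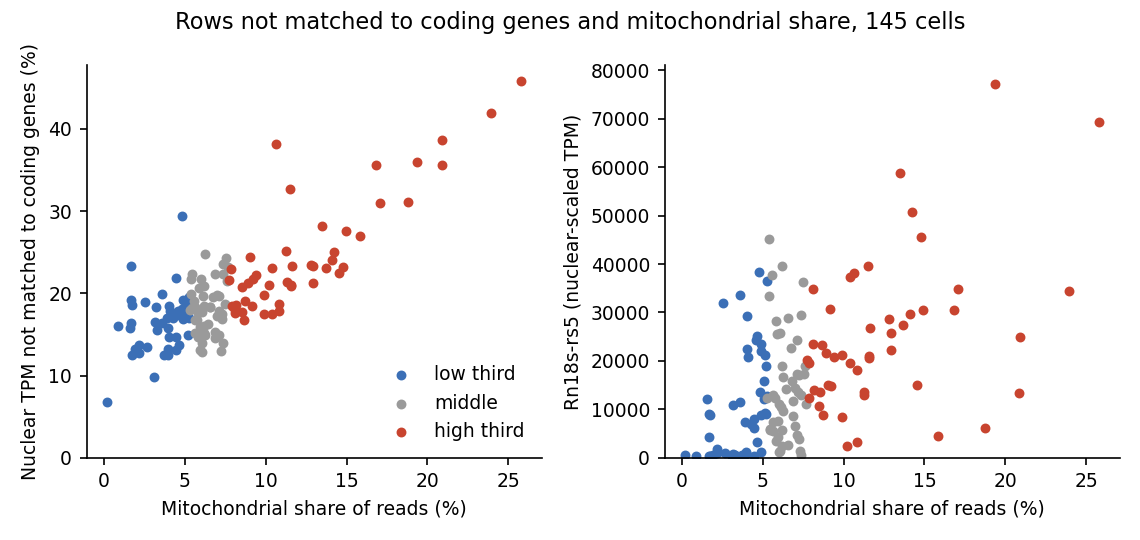
Percent of nuclear TPM on rows not matched to coding genes (left y axis) and Rn18s-rs5 in nuclear-scaled TPM (right y axis) against the mitochondrial share in percent (x axes), 1 point per kept cell, coloured by low, middle and high share. The left panel rises from medians of 16.99% to 22.7% and all cells above 30% are high-share cells, while in the right panel the cells spread from 174 to 77167.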

How the data were processed

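Smart-seq2 libraries of 146 single cells labelled as germ cells from P0.5 ovaries were read, of which 1 without Ddx4 (1410270 reads) was left out. Per the labels and methods, the authors checked reads with FastQC and quantified them with Salmon, corrected for sequence bias, against mm10 with spike-in sequences added. For each of 52697 rows (92 of them spike-ins) the deposited TPM share 1 total per cell, mitochondrial genes included, and the deposited estimated counts of reads are not normalized. The annotation release is not given in the sources used here. Symbols were matched to GENCODE M21 (28006), RefSeq symbols (35) and RefSeq synonyms (269), which gave 19767 coding nuclear genes, and 24295 rows had no match and entered only the sums.

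The share was computed from estimated counts and the levels from TPM rescaled over nuclear genes. Log2 ratios of means used a pseudocount of 1 and genes with a mean of at least 1, and a gene counts as higher or lower at 1.5-fold. Genes per cell were counted after drawing 500000 nuclear reads. Depth is 4102560 to 27057600 reads per kept cell, and intervals (Clopper-Pearson, 95%) cover counting error only. Spearman's rho carries no p-value, since cells are not replicates and no animal is named. The members and gene lists were chosen with earlier results of these data known, and the CCT, 20S proteasome and non-coding lists after the values were seen. Named genes are the 12 largest ratios each way in all cells and the 8 largest each way in zona-negative cells with a mean of at least 10 on either side, at least 0.1 in 50% or more of the cells of the higher side and a difference of mean log2 values of at least 1.5-fold, the 5 lowest and 5 highest rho, and members of the lists. No doublet caller was run, since each library was made from 1 picked cell. Alternatives were other scalings, pseudocounts, filters, folds, cuts of the share, cell filters and leaving out each cell. Python 3.11.15, NumPy 2.4.6, pandas 2.3.3, SciPy 1.17.1 and matplotlib 3.10.9 were used, and the ratios were tested on simulated data.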

Additional observations from a re-analysis of the deposited data

Results flagged for a closer look

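The library left out because its Ddx4 TPM was 0 had a mitochondrial read share of 2.16%, a signal in a library that none of the comparisons uses. That share lies within the range of the low-share cells (0.212% to 5.28%). The library also had a Dazl TPM of 0.22, a Sycp3 TPM of 0.66 and an mt-Co1 TPM of 999, and no Figla, Foxl2, Col1a1 or Hbb-bs. It held 1410270 reads, fewer than any kept cell, and a TPM of 84472 on Gm10800 alone. After thinning it had 11500 genes, against medians of 8816 in the low-share cells and 9733 in the high-share cells.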

How the results depend on the processing

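For the genes named by size of ratio or by rho, 60 ratios were recomputed under each alternative. Of the recomputed values 1010 had the same direction and side of 1.5-fold and 2 did not. Both were for Rpl14 in zona-negative cells (0.32 per spike-in TPM and 0.49 with the cells cut at the median share). These genes were chosen from the same data for extreme ratios or rho, so the count does not measure how stable the results are. For list medians, 949 recomputed values stayed on the same side of 1.5-fold, 59 moved past it, 43 moved under it and 3 from past 1.5-fold reversed. Signs changed as well, in 93 values for 26 of 62 list medians. These include the cytosolic ribosome in zona-negative cells (0.40, and -0.03 per spike-in TPM), complex IV there (0.15 and -0.25) and the biogenesis regulators there (0.45 and -0.29). The blood markers had a log2 ratio of -2.09 in all cells and -3.74 in zona-negative cells, and as a difference of mean log2 values 0.53 and 0.49. The pregranulosa markers in zona-negative cells had a median of 0.63, over 2 genes, and of -0.17 without cells with over 30% of nuclear TPM on rows not matched to coding genes. The numbers of genes higher and lower in the high-share cells were 1285 and 1885 among genes with a mean of at least 10, and 1284 and 1293 at 2-fold. In zona-negative cells they were 1255 and 1538, 1361 and 1189, and 1214 and 4768 per spike-in TPM. With each cell left out in turn, 2518 to 2681 genes were higher and 2848 to 2973 lower in all cells, and 2492 to 2697 and 2526 to 2692 in zona-negative cells. Smaller numbers under a stricter minimum or fold follow from fewer genes that can pass, and the cause of the others was not tested. Complex II in zona-negative cells (-0.63) was -0.42 with the cut at the median share and -0.47 without the cells with over 30% on rows not matched to coding genes, and the CCT chaperonin there was -0.54 and -0.59. The scaling over coding genes and the filters on non-coding RNA, globin and genes per cell were chosen after seeing the data. No paired analysis was possible because the cells form 1 group and carry no label that pairs them. Depth is unequal between cells, so genes near a mean of 1 rest on few reads.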
